A study of Mus musculus with 6 samples.

Results

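Keratin transcripts were followed in villi of the whole intestine of mice that lack *Trpm7*, which encodes a cation channel with a kinase domain, in the intestinal epithelium. All genes whose symbol in the array annotation reads *Krt* followed by a digit were taken, provided that a probe set named that gene alone. This gave 52 keratin genes of 19938 genes with a single symbol, each with 1 probe set of its own. Villi came from 3 control and 3 mutant littermates at 5 days of age (P5), with 1 array per replicate. Controls were *Trpm7* fl/fl without Cre, and mutants were *Trpm7* fl/fl;*Villin1-Cre*, so all animals carried the floxed allele and only the mutants the transgene. *Villin1-Cre* deletes floxed sequences in epithelial cells of the whole intestine, and villi were detached mechanically, so that other cells of the villus could remain. C57BL/6 is named as the background in the labels, with the sex unknown, while by the methods of the study the floxed allele was made on another strain. No group with the transgene but without the floxed allele was profiled.

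Keratins are the intermediate filament proteins of epithelial cells. A filament is built from pairs of an acidic type I and a basic type II keratin, and which pair a cell makes depends on the kind of epithelium. The type II keratins 7 and 8 and the type I keratins 18, 19, 20 and 23 belong to simple, single-layered epithelia. That of the gut is such an epithelium, but not each of these keratins is made in every one. Stratified epithelia, the sheaths of the hair follicle and hair itself use other members. Filaments are tied to neighbouring cells at desmosomes and to the basement membrane at hemidesmosomes, and they give the cell mechanical strength.

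On the arrays, *Trpm7* itself had a log2 signal of 9.11, 8.96 and 9.03 in control replicates 1, 2 and 3 and of 8.03, 7.79 and 7.88 in mutant replicates 1, 2 and 3. It was lower in each mutant array, and its mean fell by 1.13 (limma adjusted p = 1.9e-04). Where the probes sit relative to the deleted exons is not known. Every one of 11 enterocyte or general epithelial markers, with *Vil1*, *Alpi* and *Fabp2* among them, had a mean log2 signal between 11.4 and 14.5. The labelled tissue was thus borne out by its markers. Control replicates 2 and 3 held both *Xist*, made from the inactive X chromosome, and Y-linked transcripts, whereas control and mutant replicate 1 held *Xist* alone and mutant replicates 2 and 3 held the Y-linked transcripts alone. *Xist* had a log2 signal of 10.48, 9.82 and 9.66 in the controls and of 10.18, 4.76 and 5.26 in the mutants, and *Eif2s3y* had 3.63, 7.71 and 7.84 against 3.56, 8.38 and 8.50. Whether control replicates 2 and 3 are single pups is therefore not known, and results are also given without them. The study states 3 littermates per genotype for these arrays, but nothing in the labels says that each replicate is 1 animal. The p-values therefore cover the spread between these arrays only.

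All 6 simple keratins rose in mutant villi, 4 of them at least 2-fold, and no keratin fell. Rises and falls are those with an adjusted p of 0.05 or less in limma, adjusted by Benjamini-Hochberg across the 30177 probe sets of the array. *Krt7*, *Krt20*, *Krt23* and *Krt19* rose 3.17-fold, 2.58-fold, 2.46-fold and 2.18-fold, and the pair *Krt8* and *Krt18* rose 1.73-fold and 1.53-fold. Among the 46 keratins of other epithelia, 3 rose, *Krt12*, *Krt33b* and *Krt14*, each by less than 1.5-fold. In all, 9 of 52 keratins rose, or 17.3%, where 9.39% of all genes rose and 10.1% fell. At least a 2-fold rise was seen in 4 of 52, or 7.69%, against 1.7% of all genes, and a 2-fold fall in none, against 1.38%. Since RNA came from whole villi, more cells that make a keratin and more keratin RNA per cell cannot be told apart. In each of the 6 simple keratins, all mutant arrays lay above all control arrays, as the plot of their signals by array shows. The same held for 18.6% of all genes.

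**Figure D1:**
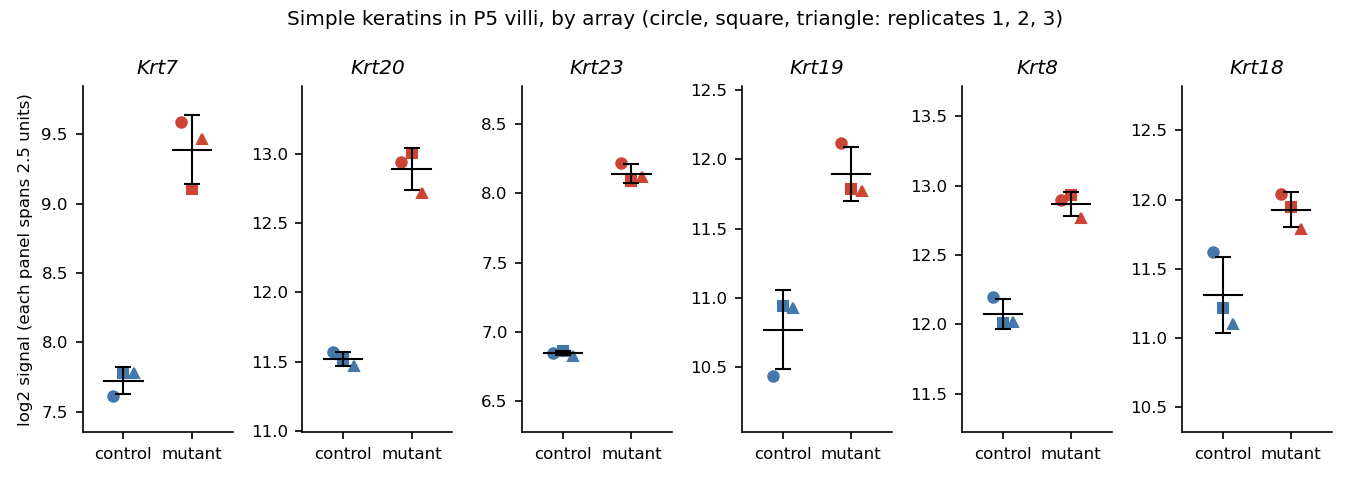
Log2 signal (y axis) of the 6 simple keratins in control and mutant villi, each panel spanning the same range. Each point is an array, and the bars give mean and SD (n = 3). The distance between groups is largest for *Krt7* and smallest for *Krt18*, whose highest control array, at 11.62, lies close to its lowest mutant array, at 11.79.

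*Krt7*, a type II keratin typical of ducts, glands and urothelium, had a log2 signal of 7.61, 7.78 and 7.78 in control villi and of 9.59, 9.11 and 9.47 in mutant villi. The lowest mutant array lay more than 1 log2 unit above the highest control array. Its mean rose from 7.72 ± 0.10 to 9.39 ± 0.25 (SD, n = 3 each), a difference of 1.67 with a 95% interval from 1.37 to 1.96 (limma adjusted p = 1.9e-04). *Krt8*, the type II keratin that pairs with keratin 18 throughout simple epithelia, had 12.20, 12.01 and 12.02 in control villi and 12.90, 12.93 and 12.77 in mutant villi. The mutant arrays lay closer to each other than to any control array. The difference was 0.79, with an interval from 0.59 to 0.99 (limma adjusted p = 8.3e-04).

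*Krt20*, the type I keratin of differentiated enterocytes and goblet cells, had a log2 signal of 11.57, 11.52 and 11.47 in control villi. In mutant villi it had 12.94, 13.01 and 12.72, a difference of 1.37 with an interval from 1.16 to 1.58 (limma adjusted p = 1.1e-04). Its control arrays were nearly equal, with an SD of 0.05. *Krt23*, a type I keratin of glandular epithelia, had 6.85, 6.86 and 6.83 in control villi and 8.22, 8.09 and 8.12 in mutant villi. With a control SD of 0.015 it had the tightest values of the 6, and its difference of 1.30 had an interval from 1.13 to 1.46 (limma adjusted p = 4.7e-05). *Krt19*, the smallest keratin and one without most of the tail domain, had 10.44, 10.94 and 10.93 in control villi and 12.12, 11.79 and 11.77 in mutant villi. Control replicate 1 was the lowest and mutant replicate 1 the highest array. The difference was 1.12, with an interval from 0.76 to 1.49 (limma adjusted p = 0.0025), and it was 0.96 without control replicate 1, so that the 2-fold rise rests on that array. *Krt18*, the type I partner of keratin 8, had 11.62, 11.22 and 11.10 in control villi and 12.04, 11.95 and 11.79 in mutant villi. Here control replicate 1 was the highest control array. The difference was 0.61, with an interval from 0.29 to 0.94 (limma adjusted p = 0.021).

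The call of *Krt18* was lost without control replicate 2 (limma adjusted p = 0.073), control replicate 3 (0.066), mutant replicate 1 (0.070) or mutant replicate 2 (0.072). It was kept without control replicate 1 or mutant replicate 3. *Krt7*, *Krt20*, *Krt23*, *Krt19* and *Krt8* were called without any 1 of the 6 arrays, with adjusted p values up to 0.011, as the plot of adjusted p values without each replicate shows. Leaving out control replicates 2 and 3 leaves control replicate 1 as the only control, assumed to vary like the mutant arrays. The differences were then 1.78 for *Krt7*, 1.32 for *Krt20*, 1.29 for *Krt23*, 1.45 for *Krt19*, 0.67 for *Krt8* and 0.31 for *Krt18*. For *Krt19* this control was its lowest control array, and for *Krt18* its highest, so these 2 differences rest on it. Between control and mutant replicate 1, the arrays that held *Xist* alone, the differences were 1.98 for *Krt7*, 1.37 for *Krt20* and *Krt23*, 1.68 for *Krt19*, 0.70 for *Krt8* and 0.42 for *Krt18*.

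**Figure D2:**
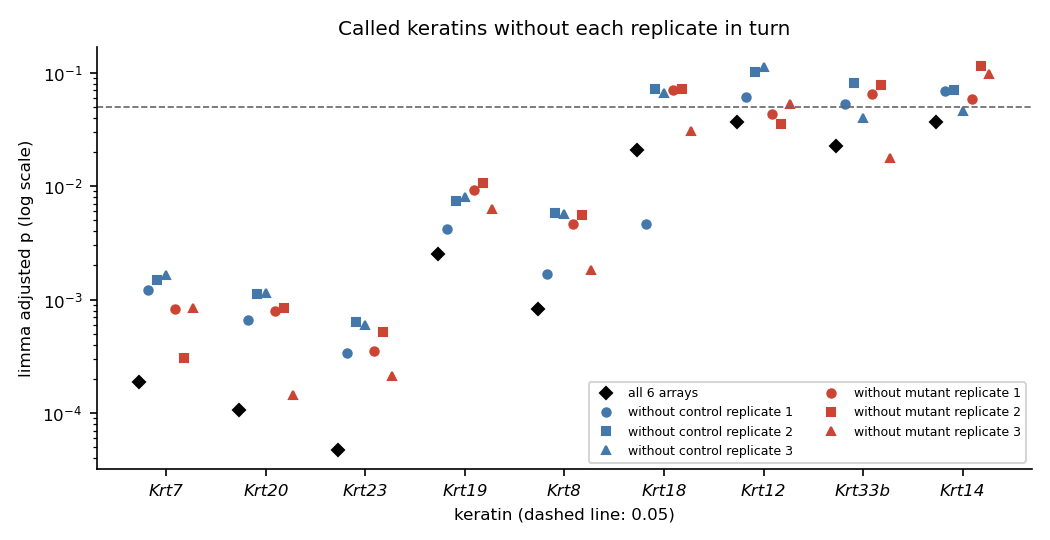
Adjusted p values of the 9 keratins that rose (y axis, log scale), with all 6 arrays (diamonds) and without each control (blue) or mutant (red) array in turn. *Krt7*, *Krt20*, *Krt23*, *Krt19* and *Krt8* stay under the dashed line at 0.05 in each case, whereas *Krt18*, *Krt12*, *Krt33b* and *Krt14* cross it in 4 or 5 of 6 cases.

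Whether the simple keratins rose by unequal amounts was asked from the log2 ratio of their signals within each array, for each of 15 pairs. The ratio of *Krt7* to *Krt18* rose by 1.05 ± 0.26 (SE) from control to mutant villi, that of *Krt20* to *Krt8* by 0.58 ± 0.06 and that of *Krt23* to *Krt18* by 0.68 ± 0.16. In 9 of the 15 pairs the mutant ratios did not overlap the control ratios. The ratio of *Krt8* to its partner *Krt18* rose by 0.18 ± 0.11 and overlapped (exact permutation test, two-sided, p = 0.2). So did the ratios among *Krt20*, *Krt23* and *Krt19*, with changes of 0.07 to 0.25, and those of *Krt7* to *Krt20* (0.30) and *Krt19* to *Krt8* (0.33), so the order of these neighbours was not resolved beyond the spread between arrays. With 3 arrays a group, the smallest p that an exact permutation test allows is 0.1, and after adjustment over the 15 pairs it was 0.167, so that no pair could pass the threshold.

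The promoters of the keratins that rose at least 2-fold and of *Krt8* differed in which of 5 short motifs they matched. The sequences are RefSeq's for build GRCm38.p6 and run from 250 bases before to 50 bases after the annotated start, 5′ to 3′ on the strand of the gene. Of the 6 simple keratins, 5 had an entry. *Krt19* had none. Capitals mark matches, on either strand, to TGANTCA (bound by AP-1), TGACNNNGC (the core of the antioxidant response element), TATAAA (the TATA box), GGGCGG (the GC box) or TTTATG (a form of the site of the gut factor CDX2). Matches may overlap each other.
*Krt7*, chr15:101412153-101412452, plus strand: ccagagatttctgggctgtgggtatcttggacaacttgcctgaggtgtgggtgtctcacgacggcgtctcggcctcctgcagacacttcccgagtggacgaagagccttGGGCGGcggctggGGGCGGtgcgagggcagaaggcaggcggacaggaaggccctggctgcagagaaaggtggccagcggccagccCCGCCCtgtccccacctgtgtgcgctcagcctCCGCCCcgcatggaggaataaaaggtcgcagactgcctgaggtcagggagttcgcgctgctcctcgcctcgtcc
*Krt20*, chr11:99438104-99438403, minus strand: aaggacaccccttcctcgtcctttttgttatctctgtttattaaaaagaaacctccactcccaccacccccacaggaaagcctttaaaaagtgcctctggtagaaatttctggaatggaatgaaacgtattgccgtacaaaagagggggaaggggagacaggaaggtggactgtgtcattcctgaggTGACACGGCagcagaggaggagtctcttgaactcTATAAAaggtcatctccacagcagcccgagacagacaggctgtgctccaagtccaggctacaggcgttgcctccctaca
*Krt23*, chr11:99493071-99493370, minus strand: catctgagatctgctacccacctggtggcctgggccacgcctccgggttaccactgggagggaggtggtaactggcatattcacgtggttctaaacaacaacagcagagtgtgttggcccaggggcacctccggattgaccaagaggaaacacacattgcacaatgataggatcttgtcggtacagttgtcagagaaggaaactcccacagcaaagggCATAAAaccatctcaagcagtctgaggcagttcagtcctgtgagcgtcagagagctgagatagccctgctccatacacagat
*Krt8*, chr15:102004293-102004592, minus strand: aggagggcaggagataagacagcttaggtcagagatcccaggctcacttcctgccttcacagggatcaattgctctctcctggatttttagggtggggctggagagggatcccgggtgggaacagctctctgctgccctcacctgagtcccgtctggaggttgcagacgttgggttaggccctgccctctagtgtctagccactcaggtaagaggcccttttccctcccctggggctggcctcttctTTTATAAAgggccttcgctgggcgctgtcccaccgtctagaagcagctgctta
*Krt7* held 4 GC boxes and no TATAAA. *Krt20* held TATAAA at position −29 from its start and TGACACGGC at −63. *Krt23* held 1 match to TTTATG, which read CATAAA on the strand of the gene, at −32. In *Krt8*, TATAAA lay across the annotated start. None of the promoters of these genes or of *Krt18*, which had no match to any of the 5, held TGANTCA. Over all 32851 promoters of the table, 7.81% held TGANTCA, 12.4% TGACNNNGC, 13.6% TATAAA, 35.7% GGGCGG and 11.9% TTTATG. Among 37 promoters of 36 keratin genes, 2 held TGANTCA, 9 TGACNNNGC, 19 TATAAA, 2 GGGCGG and 16 TTTATG. A match is a run of letters only, and binding was not measured.

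The simple keratins do not lie side by side as a group, as the plot of changes in gene order shows. In the order of the GRCm38.p6 annotation, *Krt20* and *Krt23* are neighbours on chromosome 11, with *Krt12* before them, and these 3 genes rose by 1.37, 1.30 and 0.56. The genes next to this trio, *Krt10* and *Krt39*, had differences of 0.07 and 0.03 and were not called. *Krt19* lies farther along, between *Krt15* (0.21) and *Krt9* (0.19), neither of them called. On chromosome 15, *Krt7* stands near one end of the cluster between *Krt80* and *Krt87*, each at 0.11 and not called, and *Krt8* and *Krt18* are the last genes at the other end. *Krt18* is the one type I keratin among type II genes. The 22 other keratins with a probe set on chromosome 15 were not called and lay between −0.11 and 0.29.

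**Figure D3:**
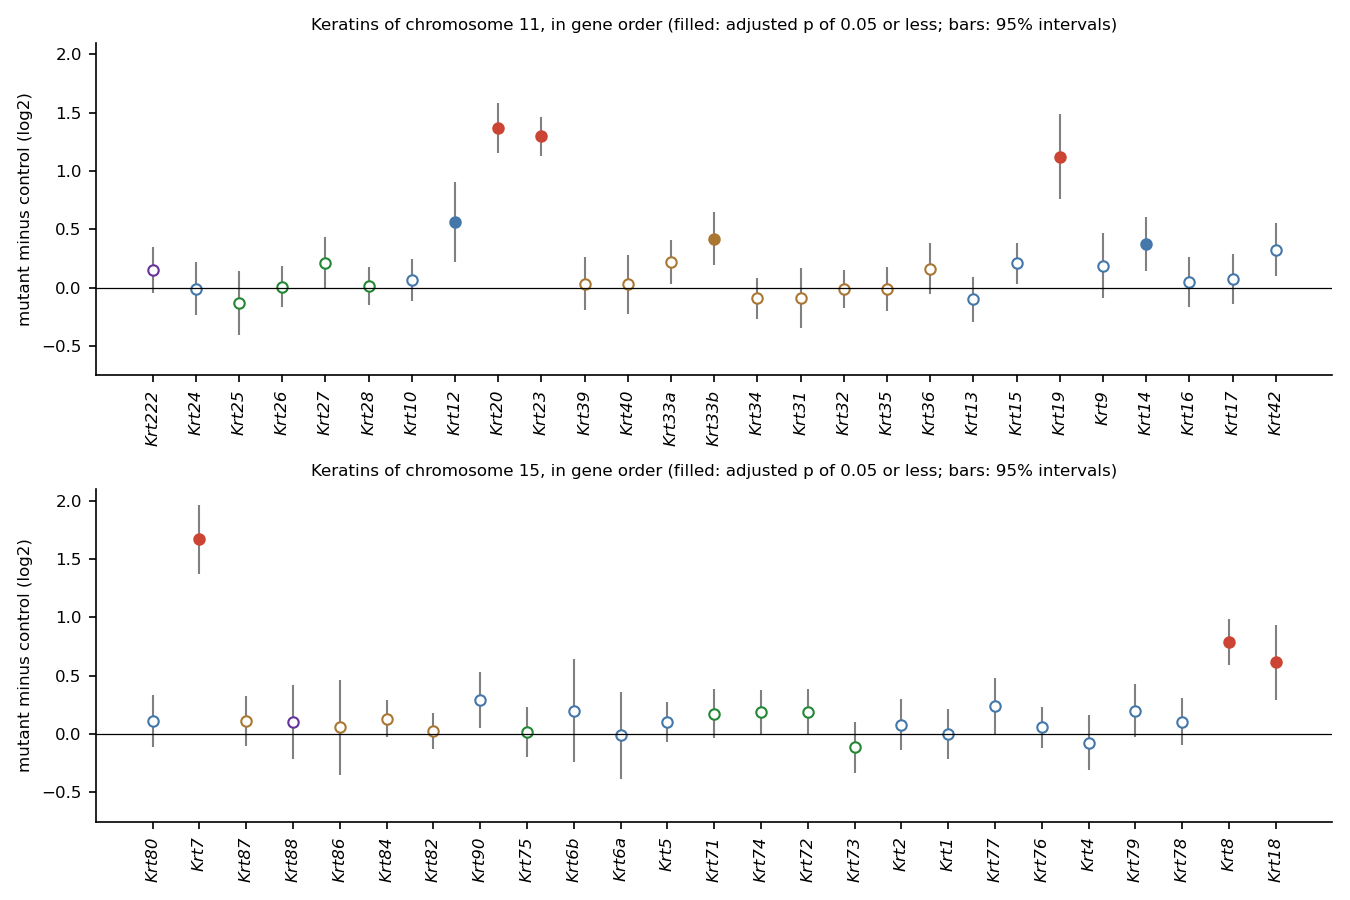
Log2 difference of mutant and control villi (y axis) for the 27 keratins of chromosome 11 and the 25 of chromosome 15, in gene order and not to scale. Bars are 95% intervals, filled points were called, and colours give the class (red simple, blue stratified, green root sheath and companion layer, brown hair, purple other). The high points are single genes or short runs among genes close to 0.

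Of the 22 keratins of stratified epithelia, *Krt12* and *Krt14* rose, or 9.09% against 9.39% of all genes, none fell and 20 were not called. *Krt12*, best known from the cornea, had a log2 signal of 6.41, 6.28 and 6.23 in control villi and of 7.22, 6.64 and 6.74 in mutant villi, a difference of 0.56 (limma adjusted p = 0.037). Mutant replicate 1 stood above the other mutant arrays. *Krt14*, the basal type I keratin of skin, had 5.16, 5.42 and 5.47 against 5.64, 5.76 and 5.78, a difference of 0.38 (limma adjusted p = 0.037). *Krt5*, the type II partner of keratin 14, had 5.05, 5.00 and 4.90 against 5.12, 5.05 and 5.10 and did not pass the test (difference 0.11, limma adjusted p = 0.395). The keratins that wounded or stressed skin makes did not pass the test either. *Krt6a* differed by −0.01, *Krt6b* by 0.20, *Krt16* by 0.05 and *Krt17* by 0.07 (limma adjusted p from 0.550 to 0.976). All 4 had mean signals between 4.58 and 5.31, under the median of 6.27 over all values of the 6 arrays. *Krt42* had the largest difference among those not called, at 0.33 (limma adjusted p = 0.059), and it was called without mutant replicate 3 (0.029), without dim probe sets (0.034), and over single-symbol probe sets or gene means alone (0.046 and 0.0455).

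Of 13 hair keratins with a probe set, only *Krt33b* was called, as risen, or 7.69% against 9.39% of all genes. *Krt81*, *Krt83* and *Krt85* had no probe set of their own here. *Krt33b* had 7.21, 7.09 and 7.29 in control villi and 7.62, 7.76 and 7.47 in mutant villi, a difference of 0.42 (limma adjusted p = 0.023), while its near copy *Krt33a* differed by 0.22 and was not called. None of the 9 keratins of the inner root sheath and companion layer was called by limma, and they lay between −0.13 and 0.21. The same held for *Krt88* (0.11) and for *Krt222*, a keratin-like gene (0.15). *Krt6a* and *Krt6b*, *Krt33a* and *Krt33b*, and *Krt14*, *Krt16* and *Krt17* resemble each other closely, and whether their probes tell them apart was not tested.

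*Krt12* lost its call without any 1 control replicate or mutant replicate 3 (limma adjusted p from 0.053 to 0.113), and *Krt33b* without control replicate 1 or 2 or mutant replicate 1 or 2 (0.053 to 0.081). *Krt14* lost it without control replicate 1 or 2 or any 1 mutant replicate (0.058 to 0.114). Quantile normalization also ended the calls of *Krt12* (0.0516) and *Krt14* (0.062), median centring that of *Krt14* (0.060) and an offset of 32 on the linear scale that of *Krt12* (0.059). With control replicates 2 and 3 both left out, limma called none of these 3 (0.052 for *Krt14*, 0.174 for *Krt33b* and 0.339 for *Krt12*). With 3 of 46 called, or 6.52%, the keratins other than the simple ones had a share of risen genes under the 9.39% of all genes. Of the 46, 42 had a mean signal under the median of all values, where a difference is a ratio of signals and may not be one of transcripts. As a further gauge, 44 keratin-associated protein genes (*Krtap*), which are expressed in hair, had mean signals from 3.17 to 7.87, and limma called none of them. Mutant arrays lay above all control arrays in 10 of the 46, or 16 of all 52 keratins, where 18.6% of all genes did so, and in none did they lie below. The mean was higher in mutant villi in 35 of the 46, lower in 10 and equal in *Krt1*, with a median difference of 0.09 over the 46, 0.11 over all 52 and 0.005 over all genes. Among all genes, 50.6% had a higher mean in mutant villi.

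**Figure D4:**
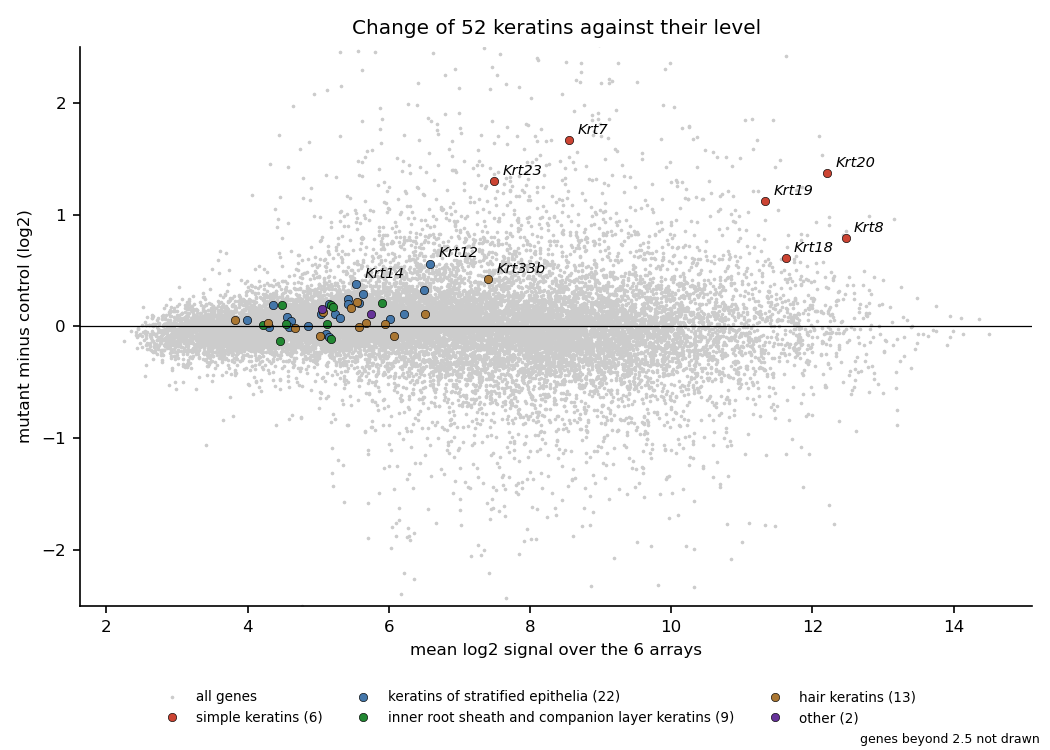
Log2 difference of mutant and control villi (y axis) against the mean log2 signal of the 6 arrays (x axis) for 52 keratins, coloured by class, and for all genes with a single symbol (grey, of which 57 lie beyond the axis at 2.5 and −2.5). The 6 simple keratins stand at mean signals of 7.50 or higher and differences of 0.61 or higher, and the other 46 lie between −0.13 and 0.56.

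Desmosomes join the keratin filaments of neighbouring cells, and 6 of 13 of their genes rose in mutant villi, 1 fell and 6 were not called. Among all genes, 9.39% rose and 10.1% fell. *Dsp*, desmoplakin, which ties the filaments to the desmosome, had a log2 signal of 10.83, 10.96 and 10.96 in control villi and of 11.67, 11.80 and 11.63 in mutant villi. It rose by 0.78 (limma adjusted p = 6.6e-04), close to the 0.79 of *Krt8*. *Pkp2*, a plakophilin of the desmosomal plaque, rose by 0.68 and its relative *Pkp3* by 0.40. Of the desmosomal cadherins of simple epithelia, *Dsg2* rose by 0.50 and *Dsc2* by 0.42, and *Perp*, a membrane protein of desmosomes, rose by 0.28. *Jup*, plakoglobin, did not pass the test (0.22, limma adjusted p = 0.152). The plakophilin of stratified epithelia, *Pkp1*, was not called, and the cadherins of these epithelia had mean signals of 4.50 or less. Among them, *Dsg3*, *Dsg4*, *Dsc3* and *Dsg1b* were not called, and *Dsg1c* fell by 0.32, from 3.80 to 3.48, signals under the median.

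Hemidesmosomes fasten keratin filaments to the basement membrane, and 3 of 4 of their listed genes rose, where 9.39% of all genes did. Both chains of their integrin rose, *Itga6* by 0.83 and *Itgb4* by 0.82 (limma adjusted p = 6.4e-04 and 7.0e-04). *Itga6* had 9.61, 9.58 and 9.53 in control villi and 10.53, 10.28 and 10.39 in mutant villi, without overlap. The tetraspanin *Cd151*, which binds this integrin, rose by 0.34, and *Col17a1*, at 0.13, was not called. Of 9 genes that link or organise keratin filaments, 4 rose, 2 fell and 3 were not called, where 9.39% of all genes rose and 10.1% fell. *Plec* and *Dst* were counted here and not with the hemidesmosome, so the counts of both lists depend on that choice. *Pof1b*, an actin-binding protein of epithelial junctions, had 8.79, 8.67 and 8.80 in control villi and 9.91, 10.28 and 10.09 in mutant villi, and it rose 2.53-fold. *Fam83h*, which recruits casein kinase to keratin filaments, rose by 0.81, *Plec*, the plectin gene, by 0.52 and *Ppl*, periplakin, by 0.42. Of the other plakin genes, *Evpl* (−0.04) and *Macf1* (−0.35) were not called, and a pair fell. *Dst*, dystonin, had 9.20, 9.34 and 9.32 in control villi and 8.25, 8.14 and 8.63 in mutant villi and fell by 0.95 (limma adjusted p = 0.0022), and *Eppk1*, epiplakin, fell by 0.78 (limma adjusted p = 0.013).

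**Figure D5:**
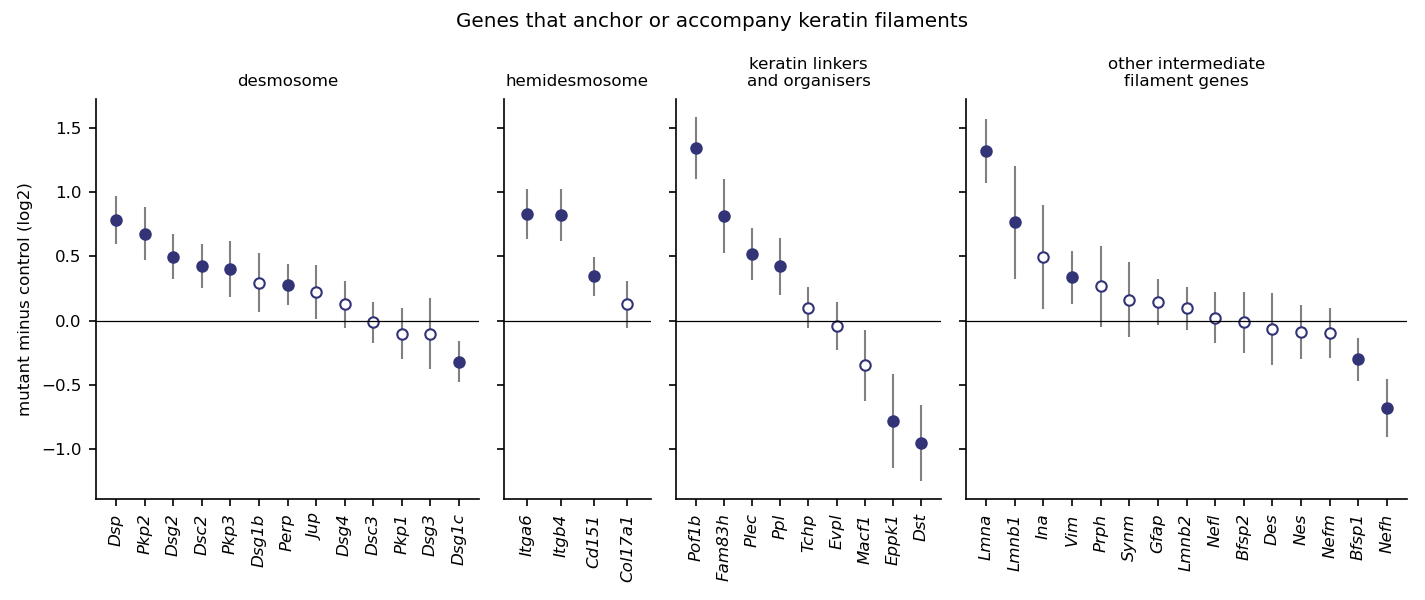
Log2 difference of mutant and control villi (y axis) for genes of desmosomes, hemidesmosomes, keratin linkers and organisers and other intermediate filament genes. Bars are 95% intervals and filled points were called. Most filled points of the desmosome and hemidesmosome lists lie above 0. The linkers, among which *Plec* and *Dst* were counted, run from 1.34 (*Pof1b*) to −0.95 (*Dst*).

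Other families of intermediate filament genes were mixed. Of 15 genes, 3 rose, or 20% against 9.39% of all genes, 2 fell and 10 were not called. *Lmna*, which encodes lamins A and C of the nuclear envelope, had 7.33, 7.38 and 7.23 in control villi and 8.76, 8.73 and 8.41 in mutant villi. It rose by 1.32 (limma adjusted p = 2.3e-04), more than *Krt8*. *Lmnb1*, the lamin B1 gene, rose by 0.76, with control replicate 1 (7.52) below the other control arrays (8.12 and 8.23). That array is the only control in the fit without control replicates 2 and 3, so a call of *Lmnb1* there rests on it. *Vim*, the filament protein of mesenchymal cells, rose by 0.34. *Nefh*, a neurofilament gene, fell by 0.68 and *Bfsp1*, a lens filament gene, fell by 0.30, with mean signals from 6.26 to 6.93. *Nefm*, *Nefl*, *Ina* and *Gfap*, filament genes of neurons and glia, were not called.

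Of the named genes of these lists, those called without any 1 array were *Dsp*, *Pkp2*, *Dsg2*, *Dsc2*, *Itga6*, *Itgb4*, *Cd151*, *Pof1b*, *Fam83h*, *Plec*, *Dst*, *Eppk1*, *Lmna* and *Nefh*. That of *Eppk1* was at the threshold, with a limma adjusted p up to 0.049998. Calls of *Pkp3* (limma adjusted p from 0.075 to 0.080), *Perp* (0.066 to 0.094) and *Bfsp1* (0.060 to 0.088) were lost without any 1 of several arrays, control replicates 2 and 3 among them. So were *Ppl* (0.052 to 0.066), without control replicate 1 or 3 or mutant replicate 1 or 2, and *Lmnb1* (0.052 to 0.085), without control replicate 2 or any 1 mutant replicate. *Vim* lost its call without any 1 array but mutant replicate 1 (0.073 to 0.115), and *Dsg1c* without control replicate 2 (0.054) or mutant replicate 2 (0.059). With control replicates 2 and 3 both left out, *Dsp* was the 1 desmosomal gene and *Pof1b* the 1 linker that rose, no linker fell, and *Itga6*, *Itgb4*, *Lmna* and *Lmnb1* were still called. *Pkp2* (0.058), *Dst* (0.077), *Nefh* (0.085), *Dsg2* (0.094), *Dsc2* (0.095), *Fam83h* (0.108), *Plec* (0.122), *Cd151* (0.128) and *Eppk1* (0.225) then lost their calls in limma, and so did *Pkp3*, *Perp*, *Ppl*, *Vim*, *Bfsp1* and *Dsg1c*.

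Cell types that make keratins, or that lack them, moved in part along with the genotype. Beside the counts given for each list, 9.39% of all genes rose and 10.1% fell. Of 7 goblet cell markers 6 fell. *Clca1* fell by 3.46, *Tff3* fell by 2.78 and *Muc2* fell by 2.69. The summed linear signal of the 7 was 23350 to 25604 in control villi and 3888 to 4686 in mutant villi. Such a sum follows the brightest genes of a list and is not a count of cells. By qPCR of whole duodenum rather than villi, the study found *Muc2* not altered. Of 11 enterocyte or general epithelial markers, the general ones *Cdh1* (0.34) and *Epcam* (0.27) rose. *Lct* fell by 0.94 and *Fabp1* fell by 0.59, and 7 were not called. The sum of the 11 was 112103 to 114980 in control villi and 109418 to 110283 in mutant villi. Mesothelium, which lines the outer gut wall and makes simple keratins, was represented by 8 markers, of which *Lrrn4* rose by 0.72 and 7 were not called. Their sum overlapped, at 501 to 735 in control villi and 701 to 933 in mutant villi. Of 19 squamous epithelium markers, *Sfn* rose by 1.55, *Ivl* fell by 1.88 and 17 were not called, and *Trp63*, the master factor of basal squamous cells, had 5.52, 5.62 and 5.51 against 5.51, 5.60 and 5.46. Their sum overlapped as well, at 2098 to 3298 and 2500 to 3998, and the brightest of the 19 was *Sprr1a*, at a mean log2 signal of 10.3.

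Of 10 markers of crypt and cycling cells, 6 rose, where 9.39% of all genes rose, and none fell. Those with the largest rise were *Rrm2* (1.21), *Ccna2* (1.11), *Plk1* (0.98) and *Mki67* (0.92). The 4 not called were *Top2a* (0.69), *Lgr5* (0.14), *Mcm2* (0.04) and *Olfm4*, at −0.95 (limma adjusted p = 0.184). The study reported *Mki67* unchanged in villi, by qPCR and in its own array results. The sum of the 10 was 2857 to 4702 in control villi and 4561 to 5047 in mutant villi, with control replicate 1 far below the other arrays. Control replicate 1 was also the lowest array in the sums of enteroendocrine, mesenchymal, mesothelium and smooth muscle markers. Enteroendocrine markers summed to 1412 to 1878 in control villi and 1969 to 2184 in mutant villi. Of these 9 markers 1 rose, *Chga* by 0.41, or 11.1% against 9.39% of all genes. Of 7 tuft cell markers limma called none (*Alox5* 0.17, *Pou2f3* −0.11), and their sums overlapped, at 378 to 386 and 380 to 394. Mesenchymal markers, 3 of 8 risen and led by *Dcn* (1.03) and *Pdgfra* (0.56), summed to 2158 to 2672 and 2934 to 3646. Neutrophil markers, 2 of 6 risen, *S100a9* by 3.46 and *S100a8* by 3.31, summed to 245 to 270 and 561 to 2592. Of 5 endothelial markers, *Tek* fell by 0.81 and *Emcn* fell by 0.53, and the sums were 1416 to 1556 and 1116 to 1366. Smooth muscle markers (0 of 6 called by limma, *Actg2* 0.14 and *Myh11* 0.13) and immune markers (1 of 7 risen, *Itgam* by 0.83) overlapped, at 1072 to 1437 and 1149 to 1497, and at 1869 to 2070 and 1900 to 2296. The calls of *Cdh1*, *Epcam*, *Lrrn4*, *Mki67*, *Chga*, *Itgam* and *Pdgfra* were each lost without at least 1 array (limma adjusted p from 0.052 to 0.129), that of *Epcam* without any 1 of the 6. With control replicates 2 and 3 both left out, *Fabp1* (limma adjusted p = 0.075), *S100a9* (0.077), *Lrrn4* (0.094), *Lct* (0.098), *Sfn* (0.110), *Tek* (0.131), *Cdh1* (0.131), *S100a8* (0.140), *Itgam* (0.140), *Vim* (0.176) and *Epcam* (0.222) lost their calls, and *Clca1*, *Tff3*, *Muc2*, *Ivl*, *Rrm2*, *Ccna2*, *Plk1*, *Mki67*, *Chga*, *Dcn*, *Pdgfra* and *Emcn* kept theirs. In that fit the only control was control replicate 1, the lowest array in the crypt, enteroendocrine and mesenchymal sums, so the calls kept in these lists rest on it. The part of any of these cell types in the rise of the simple keratins was not tested.

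Of 12 epithelial transcription factors with a probe set, 3 rose, or 25% against 9.39% of all genes, 1 fell, against 10.1% of all genes, and 8 were not called. *Klf4*, a factor of differentiated epithelial cells, had 9.51, 9.38 and 9.35 in control villi and 9.99, 10.10 and 9.99 in mutant villi and rose by 0.61 (limma adjusted p = 0.0017). *Grhl1*, a grainyhead factor, rose by 0.48 and *Klf5*, a factor of crypt cells, by 0.36. *Cdx2*, the factor of intestinal identity, had 10.53, 10.69 and 10.69 against 10.21, 10.13 and 10.37 and fell by 0.40 (limma adjusted p = 0.021). The calls of *Cdx2* (limma adjusted p from 0.065 to 0.076), *Grhl1* (0.054 to 0.078) and *Klf5* (0.079 to 0.121) were lost without any 1 of 4 or 5 arrays, control replicates 2 and 3 among them, whereas *Klf4* was called without any 1 of the 6. With control replicates 2 and 3 both left out, limma called none of these factors, with adjusted p values of 0.060 for *Klf4*, 0.131 for *Klf5*, 0.185 for *Grhl1* and 0.274 for *Cdx2*.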

How the data were processed

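RNA from villi was labelled with biotin and hybridised to Affymetrix whole-transcript arrays. The authors deposited log2 signals, 1 per probe set and array. How the values were corrected for background, summarised and normalized was not stated. The medians of the control arrays ran from 6.24 to 6.26, and each mutant array had 6.3. The number of arrays limits the precision. Of 30177 probe sets, 21789 had a single symbol in the platform annotation, 1621 had several and 6767 were not listed. The symbols of all 52 keratins equal those of RefSeq for the same Entrez ID. Genes with several probe sets were represented by the one with the highest mean signal.

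Genotypes were compared in limma 3.58.1 (R 4.3.3), two-sided, by lmFit and eBayes with 3.92 prior degrees of freedom, and p-values were adjusted by Benjamini-Hochberg across the whole table. No test is named for the arrays in the study. The script was tested on simulated data. Within-array ratios used an exact permutation test (scipy 1.17.1). Gene lists are described by counts. Of 216 listed genes, 12 had no probe set of their own.

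Members and lists were chosen with earlier results of these data known. The rule for names took *Trpm7*, the simple keratins, other called keratins, *Krt5*, *Krt14*, *Krt6a*, *Krt6b*, *Krt16* and *Krt17*, and up to 4 called members of each list with the largest change, or 2 where none was called. *Krt42*, *Pkp3*, *Perp*, *Dsg1c*, *Plec*, *Ppl*, *Bfsp1* and others were named after their values were seen. Alternatives were quantile normalization, median centring, a block for the replicate number, trend and robust eBayes, a filter on dim probe sets (group means under 6.27), an offset of 32 on the linear scale, single-symbol probe sets, the mean of a gene's probe sets, control replicates 2 and 3 averaged, and each replicate left out. Leaving out control replicates 2 and 3 together was added after seeing the data. Figures were drawn with matplotlib 3.10.9.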

Additional observations from a re-analysis of the deposited data

How the results depend on the processing

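The differences of *Krt7*, *Krt20*, *Krt23*, *Krt19* and *Krt8* kept their direction and their call under all 16 alternatives, with adjusted p values up to 0.038. *Krt18* kept its direction, from 0.31 to 0.77, and lost its call under 6, among them the average of control replicates 2 and 3 (adjusted p = 0.066). Of 52 keratins, 5 rose without control replicates 2 and 3, and 5 to 8 without any 1 replicate, 5 of them without control replicate 2. No keratin fell under any of the 16 alternatives. Without dim probe sets, 11 keratins were left, which by construction are the bright ones, and their median difference was 0.61.

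Without control replicates 2 and 3, 1 desmosomal gene rose and 0 fell, 1 linker rose and 0 fell, and 0 other intermediate filament genes fell. The number of fallen desmosomal genes was 0 without dim probe sets and 0 with the offset of 32, and 0 to 1 without any 1 replicate. Of the other intermediate filament genes, 1 fell with control replicates 2 and 3 averaged. Without any 1 replicate, 1 to 3 of them rose and 1 to 2 fell.

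Among genes not called, *Krt6a* changed sign with the offset of 32 (0.0014), with control replicates 2 and 3 averaged (0.024), without them (0.13) and without any 1 replicate (−0.19 to 0.14). *Krt16* ran from −0.037 to 0.10 without any 1 replicate, *Actg2* from −0.07 to 0.32 and *Myh11* from −0.15 to 0.29, and *Krt17* was −0.0467 without control replicates 2 and 3. The cause was not tested for any of these.

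Whether the replicate numbers pair the arrays is not known. The deviations of same-numbered arrays correlated at 0.17, 0.039 and 0.12, and those of differently numbered arrays at −0.16 to 0.085. Control replicate 2 correlated best with mutant replicate 3 (0.085). With the replicate block, 9 keratins rose and 0 fell. *Krt33b* was lost (adjusted p just over 0.05) and *Krt42* was gained (0.036). Among other named genes the block ended the calls of *Perp* (0.053), *Epcam* (0.061) and *Klf5* (0.080). Median centring ended those of *Itgam*, *Perp*, *Chga*, *Vim*, *Klf5* and *Epcam* (0.053 to 0.077), quantile normalization those of *Itgam* (0.053) and *Epcam* (0.092), the offset of 32 those of *Mki67* (0.058), *Itgam* (0.079) and *Dsg1c* (0.113), and trend and robust estimation those of *S100a8* (0.0504), *Itgam* (0.061) and *Mki67* (0.073).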
